A study of Mus musculus with 6 samples.

Results

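The 9 genes described here mark the medium spiny neurons of the striatum: the receptor genes Drd1, Drd2 and Adora2a, the signalling genes Ppp1r1b, Rgs9, Pde10a and Pde1b, and the neuropeptide precursors Penk and Tac1. They were chosen by name from the 33182 genes of the deposited table, where each name had 1 row. All 9 passed the minimum mean level of 0.5 FPKM (fragments scaled to transcript length and to the mapped fragments of the library) that left 15740 genes to be tested. RNA came from tissue labelled motor cortex of SOD1G93A mice, which carry a mutant human SOD1 and model amyotrophic lateral sclerosis, and both groups carried the transgene. There were 3 libraries labelled as ultrasound-treated and 3 labelled as controls, all at day 120, and the series title names the treatment low-intensity pulsed ultrasound. The sources used here do not give the ultrasound settings, the handling of the controls, the sex of the mice or the promoter of the transgene. No label says whether each library is a different animal, and the p-values therefore refer to the spread between libraries, which may be technical. Positions below are those of the deposited table, whose build is not settled.

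Medium spiny neurons are the GABAergic output neurons of the striatum, a deep nucleus below the cortex that receives cortical and dopaminergic input. Those of the direct pathway carry the D1 dopamine receptor, which raises cAMP, and release substance P. Those of the indirect pathway carry the D2 dopamine receptor, which lowers cAMP, and the adenosine A2a receptor, which raises it, and release enkephalin. Both kinds use phosphodiesterases to clear cyclic nucleotides and DARPP-32, the product of Ppp1r1b, to pass the cAMP signal on to protein phosphatase. Some of these genes are also used outside the striatum, Tac1 and Penk in subsets of cortical interneurons among others.

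The sequences before the start sites of a direct-pathway neuropeptide gene and of both dopamine receptor genes are shown because the receptors and the peptides of these pathways varied together between libraries. They are the 250 bases upstream of a RefSeq start site in the GRCm38.p6 build, read 5′ to 3′ on the gene's strand. RefSeq entries were found for 6 of the 9 genes, with 10 start sites in all, and not for Adora2a, Ppp1r1b or Penk. Capitals mark matches, on either strand, to the CRE core TGACG (part of cAMP response elements), the GC box GGGCGG and the E-box CACGTG.
Tac1 (chr6:7554811-7555060, plus strand): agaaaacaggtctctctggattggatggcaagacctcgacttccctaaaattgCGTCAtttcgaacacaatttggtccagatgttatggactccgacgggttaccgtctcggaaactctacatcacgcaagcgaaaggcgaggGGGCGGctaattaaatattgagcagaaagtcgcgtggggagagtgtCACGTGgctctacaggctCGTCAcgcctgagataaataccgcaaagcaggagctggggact
Drd2 (chr9:49340153-49340402, plus strand): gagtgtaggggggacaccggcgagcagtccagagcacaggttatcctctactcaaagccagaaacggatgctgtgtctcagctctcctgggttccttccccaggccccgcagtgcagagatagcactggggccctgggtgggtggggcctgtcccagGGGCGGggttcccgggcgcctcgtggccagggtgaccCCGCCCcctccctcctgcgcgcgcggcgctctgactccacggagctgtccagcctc
Drd1 (chr13:54055659-54055908, minus strand, first of 2 start sites): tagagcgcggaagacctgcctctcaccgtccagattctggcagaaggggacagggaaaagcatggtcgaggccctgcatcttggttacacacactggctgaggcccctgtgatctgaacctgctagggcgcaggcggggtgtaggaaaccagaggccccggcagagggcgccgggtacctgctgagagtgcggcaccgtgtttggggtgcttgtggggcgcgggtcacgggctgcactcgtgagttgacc
The Tac1 window held 2 CRE cores, at -197 to -193 and at -43 to -39 from the start site, both as the reverse complement CGTCA. It also held a GC box at -107 to -102 and an E-box at -61 to -56. The Drd2 window held 2 GC boxes, at -93 to -88 and -56 to -51, and the Drd1 window shown held none of the 3 motifs. Among the 10 windows, 1 held the CRE core, against 17.8% of all 32851 windows searched, 6 held the GC box, against 32.7%, and 1 held the E-box, against 6.02%. The full cAMP response element TGACGTCA was in 0 of the 10 windows and in 1.55% of all windows, and the TATA box TATAAA was in 1, that of Rgs9, and in 12.4% of all windows. The GC box was in at least 1 window of each of the 6 genes. A match of letters does not show binding.

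Total counts were 42726633 to 45885619 in the ultrasound libraries and 38202541 to 60088636 in the controls. Markers of cortical projection neurons were present in every library, with Slc17a7, the vesicular glutamate transporter of cortical excitatory neurons, at 196 to 247 FPKM in ultrasound libraries and 162 to 206 FPKM in controls. The 9 striatal genes were nevertheless all measured well above the counting floor, from 444 counts for Drd2 in control 2 to 26928 counts for Ppp1r1b in ultrasound 3. Transcripts of the olfactory bulb stood apart in control 3: the 6 marker genes summed to 1.37, 2.98 and 2.49 FPKM in ultrasound libraries 1 to 3 and to 3.13, 1.82 and 62.0 FPKM in controls 1 to 3, with Uncx listed at 0 throughout. Ttr, the transthyretin gene of the choroid plexus, stood apart in ultrasound 3, with 235 FPKM there, 7.08 and 12.7 FPKM in ultrasound 1 and 2, and 2.35, 1.63 and 3.88 FPKM in controls 1 to 3. The other 5 choroid plexus genes summed to 2.02, 1.55 and 7.29 FPKM in ultrasound libraries and to 1.53, 0.609 and 6.89 FPKM in controls. The sum in control 3 lay in Clic6 (3.49 FPKM) and Aqp1 (3.12 FPKM), while Kl was at 0.287 FPKM there and Folr1 and Kcne2 at 0. The members' fold changes and the list medians are therefore also given without control 3 and without both libraries, whereas the ratios and the ranking of similar genes rest on all 6.

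For the 3 receptor genes no difference between ultrasound and control libraries larger than the spread between libraries was found. Drd1, the D1 receptor gene (ENSMUSG00000021478, protein-coding, placed by the deposited table on chromosome 13, minus strand, 54205202 to 54209724), had 9.18, 8.29 and 16.3 FPKM in ultrasound libraries 1 to 3, against 5.02, 3.83 and 14.9 FPKM in controls 1 to 3. Controls 1 and 2 were the 2 lowest libraries and control 3 lay just below ultrasound 3, so the groups overlapped. Its log2 fold change, ultrasound minus control, was 0.53 (SE 0.57), which the quasi-likelihood test of edgeR gave an adjusted p of 0.976. Drd2, the D2 receptor gene (ENSMUSG00000032259, plus strand of chromosome 9, 49251927 to 49319477), had 10.1, 10.2 and 18.8 FPKM in ultrasound libraries, against 6.18, 2.55 and 20.4 FPKM in controls. Here control 3 was the highest of the 6 libraries and control 2 the lowest, 7.98-fold apart. The log2 fold change was 0.45 (SE 0.75, edgeR adjusted p = 0.986). Adora2a, the adenosine A2a receptor gene (ENSMUSG00000020178, plus strand of chromosome 10, 75152711 to 75170618), had 15.3, 14.5 and 24.9 FPKM in ultrasound libraries, against 9.76, 4.01 and 28.2 FPKM in controls. It followed Drd2 closely, again with the lowest and the highest library both among the controls. The log2 fold change was 0.41 (SE 0.69, edgeR adjusted p = 0.987).

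**Figure D1:**
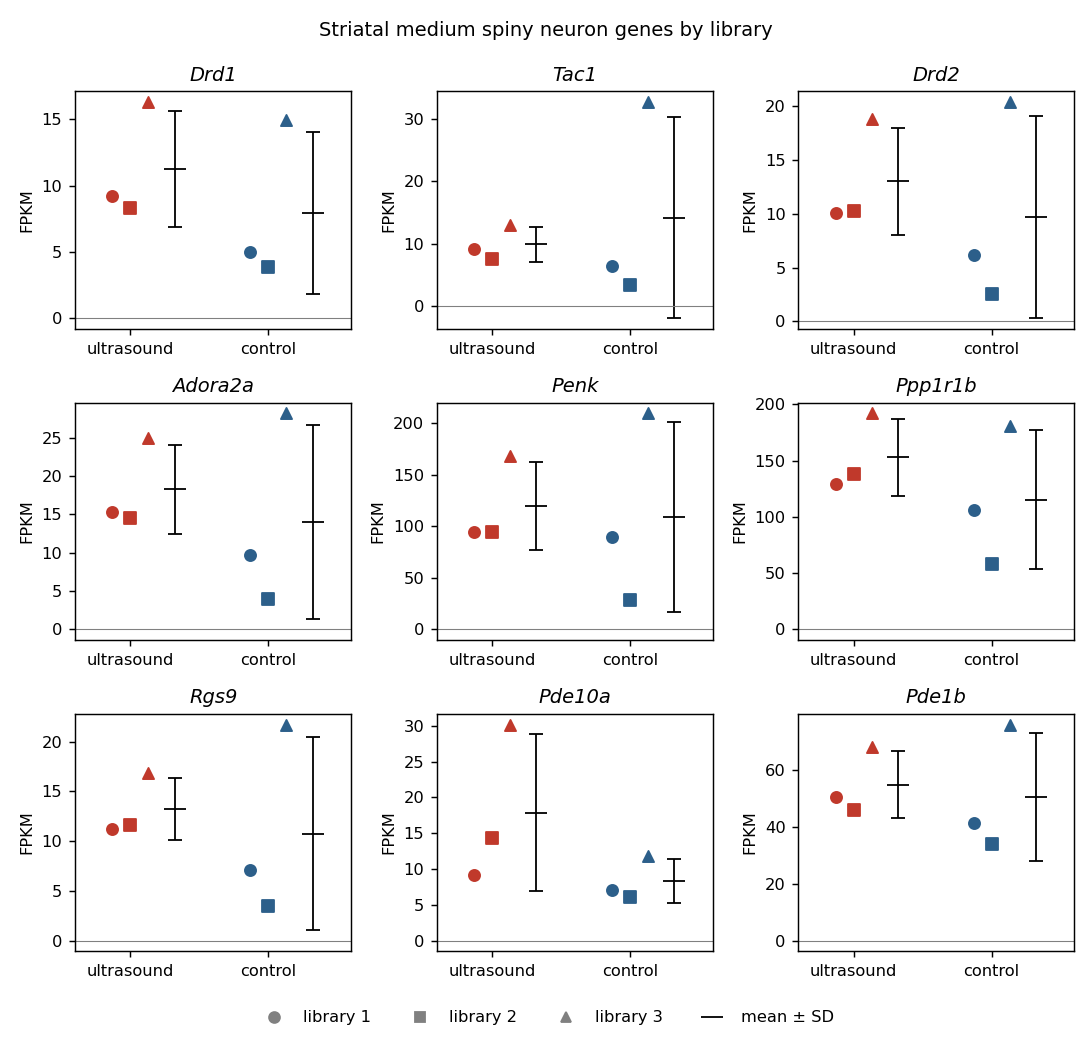
FPKM of each of the 9 genes (y axis, starting at or below 0) in the 3 ultrasound and the 3 control libraries (x axis). Each point is 1 library, its shape gives the library number, and the bar is the group mean ± SD. Control 2 is the lowest of the 6 libraries for all 9 genes, and control 3 or ultrasound 3 is the highest.

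The signalling genes behaved alike except Pde10a, whose levels in ultrasound 2 and 3 were high. Ppp1r1b, which encodes DARPP-32, the cAMP-regulated inhibitor of protein phosphatase 1 (ENSMUSG00000061718, plus strand of chromosome 11, 98239230 to 98248622), was the most abundant member, at 129, 138 and 192 FPKM in ultrasound libraries, against 106, 58.3 and 181 FPKM in controls. The log2 fold change was 0.44 (SE 0.41, edgeR adjusted p = 0.976). Rgs9, which encodes a regulator that switches off G protein signals behind dopamine and opioid receptors (ENSMUSG00000020599, minus strand of chromosome 11, 109116181 to 109188955), had 11.2, 11.6 and 16.9 FPKM in ultrasound libraries, against 7.08, 3.46 and 21.7 FPKM in controls. The ultrasound libraries all lay between control 1 and control 3, and the log2 fold change was 0.32 (SE 0.66, edgeR adjusted p = 0.990).

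Pde1b, a calcium- and calmodulin-dependent phosphodiesterase gene (ENSMUSG00000022489, plus strand of chromosome 15, 103411461 to 103438479), varied least, at 50.6, 46.1 and 68.3 FPKM in ultrasound libraries, against 41.4, 34.1 and 76.1 FPKM in controls. Its highest library was 2.23-fold above its lowest. The log2 fold change was 0.15 (SE 0.32, edgeR adjusted p = 0.991). Pde10a, the phosphodiesterase of cAMP and cGMP that is strongly enriched in these neurons (ENSMUSG00000023868, plus strand of chromosome 17, 8744204 to 9205477), had 9.15, 14.3 and 30.2 FPKM in ultrasound libraries, against 7.09, 6.09 and 11.8 FPKM in controls. Ultrasound 3 was 3.30-fold above ultrasound 1, while controls 2 and 3 were only 1.94-fold apart, and the groups overlapped because control 3 lay above ultrasound 1. Pde10a had the largest log2 fold change of the 9, 1.13 (SE 0.49), and the smallest unadjusted p, with an edgeR adjusted p of 0.973 and a DESeq2 adjusted p of 0.396. Without ultrasound 3 its log2 fold change was 0.56 (SE 0.36, edgeR adjusted p = 0.929).

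The neuropeptide precursors also differed widely between controls, Tac1 the most of the 9 genes. Penk, the precursor of the enkephalins (ENSMUSG00000045573, minus strand of chromosome 4, 4133531 to 4138819), had 94.3, 94.9 and 169 FPKM in ultrasound libraries, against 89.8, 28.7 and 210 FPKM in controls. Control 3 was 7.31-fold above control 2, whereas the ultrasound libraries spanned 1.79-fold. The log2 fold change was 0.15 (SE 0.70, edgeR adjusted p = 0.997). Tac1, the precursor of substance P (ENSMUSG00000061762, plus strand of chromosome 6, 7554879 to 7562977), had 9.14, 7.62 and 12.9 FPKM in ultrasound libraries, against 6.49, 3.38 and 32.6 FPKM in controls. Control 3 was 9.65-fold above control 2 and far above ultrasound 3, and Tac1 was the only member with a negative log2 fold change, -0.50 (SE 0.84, edgeR adjusted p = 0.987). In the deposited table Penk and Ppp1r1b each overlap a RIKEN gene on the opposite strand, at 0.506 and 2.74 FPKM on average, and Pde10a overlaps 3 predicted genes at up to 0.0993 FPKM, and the strand used in counting is not stated.

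Across the 9 genes, 0 passed the adjusted threshold of 0.05 in edgeR, where 1 of 15740 tested genes (0.00635%) did, and 0 had an unadjusted p under 0.05, against 4.77% of the tested genes. In DESeq2, 0 passed the adjusted threshold, against 0.184%, and 1, Pde10a, had an unadjusted p under 0.05, against 5.66%. The ultrasound and control groups did not overlap for 0 of the 9, against 10.8% of the tested genes. The log2 fold change was above 0 for 8 of 9, against 48.8%, with a median of 0.41 over the 9 and -0.01 over all tested genes. The 9 genes share the same libraries, so these are not separate observations.

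The median and its sign depended on which control was included. Without control 2, the median log2 fold change of the 9 genes was -0.03, with 3 of 9 above 0 (50.3% of all tested genes) and 0 had an unadjusted p below 0.05 (4.06% of all tested genes). Without control 3, the median was 1.36, all 9 were above 0 (50.7% of all tested genes), and 8 had an unadjusted p under 0.05 (5.15% of all tested genes), with 0 past the adjusted threshold in edgeR (0.0254% of all tested genes, and the same share without control 2). In that fit Drd1 had the smallest adjusted p of the 9, with a log2 fold change of 1.38 (SE 0.32, edgeR adjusted p = 0.688), and Penk was the gene without an unadjusted p under 0.05. Without both control 3 and ultrasound 3, a pair chosen after the data were seen for their olfactory bulb and choroid plexus transcripts, the median was 0.90, all 9 were above 0 (50.3% of all tested genes) and 6 had an unadjusted p under 0.05 (5.37% of all tested genes). The adjusted threshold was again passed by 0 in edgeR (0.0508% of all tested genes), and the smallest adjusted p was 0.547, for Drd1. With the replicate numbers as a block, 9 of 9 were above 0 (48.7% of all tested genes), the unadjusted p of 2 was below 0.05 (4.03%) and 0 passed the adjusted threshold in edgeR, although the numbers were not found to pair the libraries.

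**Figure D2:**
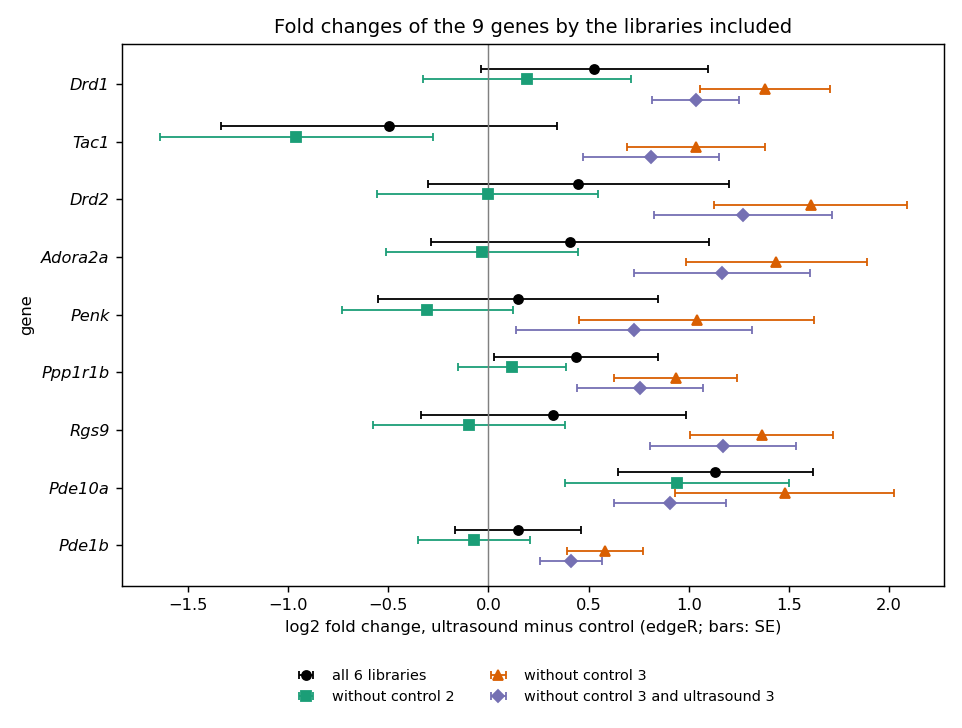
Log2 fold changes, ultrasound minus control (x axis; points are edgeR estimates and bars their SE), of the 9 genes (y axis) with all 6 libraries and with the named libraries left out. All 9 estimates are above 0 without control 3, and 3 of 9 are above 0 without control 2.

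The members varied together from library to library. Control 2 was the lowest of the 6 libraries for 9 of 9 members, against 11.1% of all tested genes, and controls 1 and 2 were the 2 lowest for 9 of 9, against 4.89%. Control 3 was the highest library for 6 (21.5% of all tested genes) and ultrasound 3 for the remaining 3, Drd1, Ppp1r1b and Pde10a (16.7%). Together, control 2 at the bottom with either of these at the top held for 9 of 9, against 6.74%. For 8 of 9, all but Pde10a, these 2 libraries were the highest pair with control 2 at the bottom, against 2.44% of all tested genes. The lowest and the highest library of each member were the same in counts scaled to library size by TMM as in FPKM. The spread lay in the controls: the SD of log2(FPKM + 0.5) had a median over the members of 0.42 among ultrasound libraries and 1.26 among controls, where the median over all tested genes was 0.22 in both groups. Pde10a went the other way, with an SD of 0.84 among ultrasound libraries and 0.47 among controls. In RNA from whole tissue, fewer striatal neurons in a sample and less of these RNAs per neuron cannot be told apart.

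Pairwise correlations over the 6 libraries, on the log2(FPKM + 0.5) scale, put Pde10a apart from the other members. Over the 36 pairs Pearson's r ranged from 0.502 to 0.998 with a median of 0.948, and Spearman's rho from 0.714 to 1 with a median of 0.943. With a two-sided exact permutation test over the 720 orderings and Benjamini-Hochberg adjustment over the 36 pairs, 28 pairs passed 0.05 by Pearson's r and 29 by Spearman's rho. With 1 library left out, the count by Pearson's r was 24 without ultrasound 1, 28 without ultrasound 2 and 16 without ultrasound 3. It was 0 without control 1, 12 without control 2 and 26 without control 3, while the median r lay between 0.928 and 0.957. These tests had fewer than 720 orderings, which makes the smallest possible p larger, so a lower count need not mean a lower r. Without control 1 the median r was 0.956. Of the 28 pairs without Pde10a, 27 passed by Pearson's r and the lowest r was 0.853, for Tac1 with Ppp1r1b. Of the 8 pairs with Pde10a, 1 passed by Pearson's r, that with Drd1. By Spearman's rho it was instead that with Ppp1r1b (rho = 0.943, exact permutation p = 0.0167, adjusted p = 0.0261). The pairs share their libraries, the scaling of each library and both groups. No share over pairs of all tested genes is given here, so the counts of pairs cannot be read as particular to these genes. Correlations of the deviations from group means, which remove any difference between groups, had a median of 0.964 and a minimum of 0.624.

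Within the indirect pathway, Drd2 and Adora2a gave the highest correlation, with r = 0.998 (exact permutation p = 0.00278, adjusted p = 0.0100) and rho = 0.943 (exact permutation p = 0.0167, adjusted p = 0.0261). Without controls 2 and 3, the libraries farthest from the median of Drd2, r was 0.997. Within the direct pathway, Drd1 and Tac1 had r = 0.874 (exact permutation p = 0.0139, adjusted p = 0.0208) and rho = 0.943 (exact permutation p = 0.0167, adjusted p = 0.0261), and r was 0.898 without ultrasound 3 and control 2. Across the pathways, Drd1 and Drd2 had r = 0.971 (exact permutation p = 0.00556, adjusted p = 0.0105) and rho = 0.886 (exact permutation p = 0.0333, adjusted p = 0.0414), with r = 0.986 without ultrasound 3 and control 2. The lowest value was that of Tac1 with Pde10a, at r = 0.502 (exact permutation p = 0.299, adjusted p = 0.299) and rho = 0.714 (exact permutation p = 0.136, adjusted p = 0.136). That pair gave r = 0.857 without controls 2 and 3. Without the same libraries, Pde10a had r = 0.952 with Drd2, 0.927 with Adora2a, 0.925 with Rgs9 and 0.922 with Penk. For its other pairs ultrasound 3 and control 2 were left out, and r was 0.621 with Drd1, 0.701 with Ppp1r1b and 0.412 with Pde1b. After the 2 libraries farthest from the median of the first gene were left out, r over the 36 pairs ranged from 0.412 to 0.997, with a median of 0.941.

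**Figure D3:**
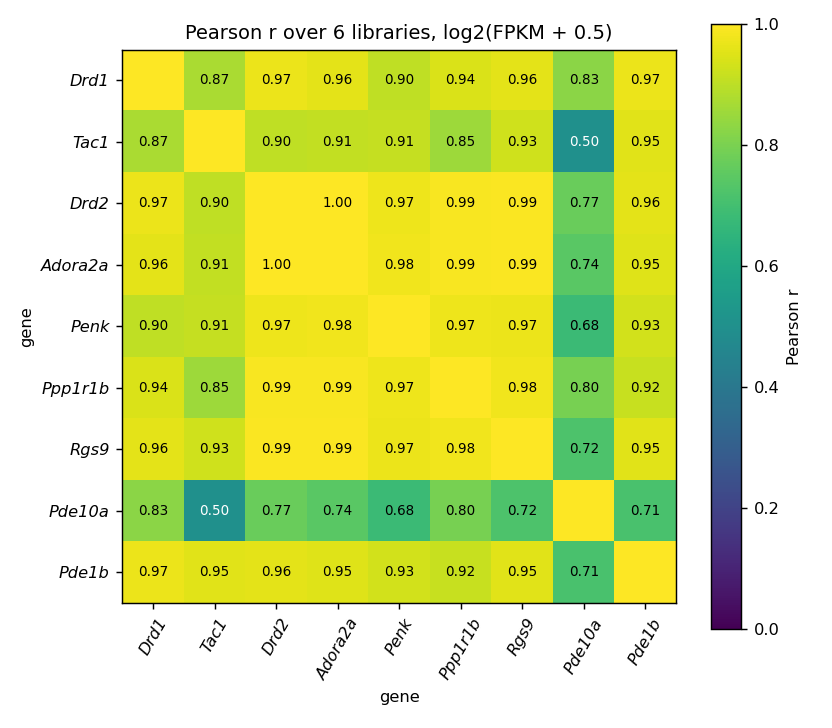
Pearson's r between each pair of the 9 genes (both axes) over the 6 libraries on the log2(FPKM + 0.5) scale, from dark (0) to light (1). The pairs without Pde10a lie between 0.853 and 0.998, and those with Pde10a between 0.502 and 0.827.

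Ratios between members within a library, chosen after their levels were seen and given without a test, show where the proportions held and where they did not. Adora2a over Drd2 stayed within a narrow range, at 1.53, 1.42 and 1.33 in ultrasound libraries 1 to 3 and 1.58, 1.57 and 1.38 in controls 1 to 3, although control 3 was 7.03-fold above control 2 for Adora2a and 7.98-fold for Drd2. The balance of the receptors, Drd1 over Drd2, was 0.913, 0.809 and 0.867 in ultrasound libraries and 0.813, 1.5 and 0.732 in controls. Control 2, the library poorest in striatal transcripts, thus had the highest level of Drd1 relative to Drd2.

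Tac1 over Drd1 was 0.997, 0.920 and 0.795 in ultrasound libraries and 1.29, 0.883 and 2.19 in controls, so control 3 had an excess of Tac1 beyond its D1 receptor level. Penk over Drd2 was 9.38, 9.27 and 8.98 in ultrasound libraries and 14.5, 11.2 and 10.3 in controls, which left every control above every ultrasound library. In all, 12 ratios were formed, and how often the ratios of other gene pairs separate the groups was not computed. Among single genes, the groups did not overlap for 10.8% of the tested genes. Pde10a over Drd1 was 0.997, 1.72 and 1.85 in ultrasound libraries and 1.41, 1.59 and 0.792 in controls. Pde10a over Pde1b was 0.181, 0.310 and 0.442 in ultrasound libraries and 0.171, 0.178 and 0.155 in controls. Both ratios were thus highest in ultrasound 2 and 3, and in ultrasound 1 Pde10a over Drd1 lay among the controls while Pde10a over Pde1b lay just above them.

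**Figure D4:**
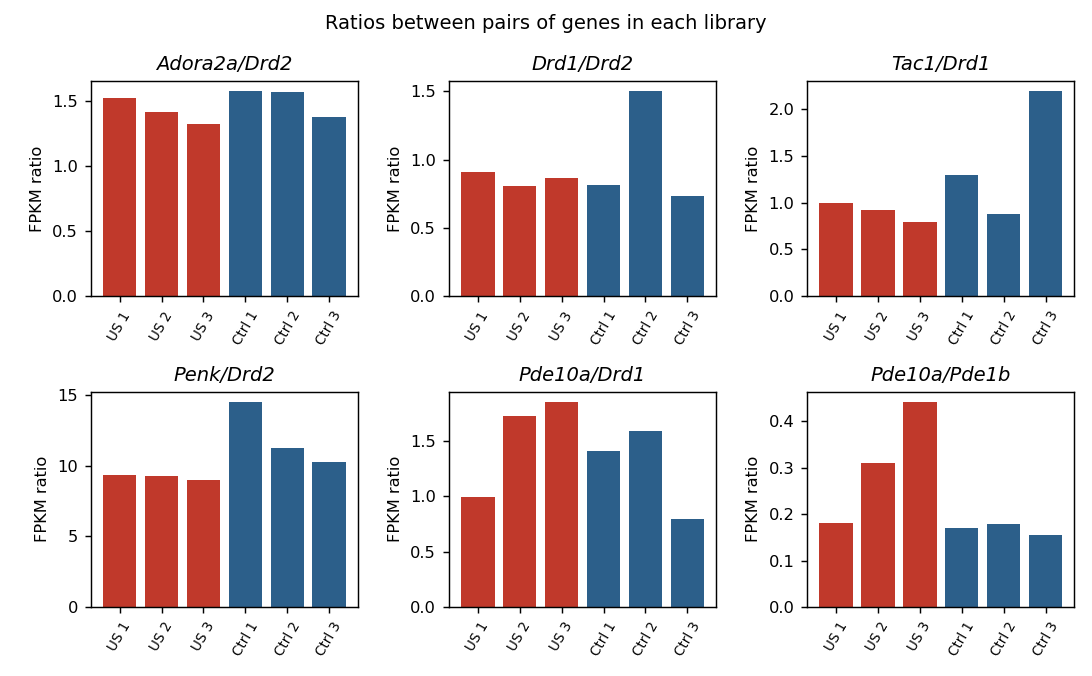
Ratios of FPKM between pairs of members (y axes, from 0) in the 3 ultrasound libraries (red) and the 3 control libraries (blue), 1 bar per library. Adora2a over Drd2 stays between 1.33 and 1.58, while Tac1 over Drd1 reaches 2.19 in control 3 and Drd1 over Drd2 reaches 1.5 in control 2.

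Other genes of medium spiny neurons followed the same libraries in part. Of 27 such genes, 26 were tested, 0 passed the adjusted threshold in edgeR or in DESeq2, and 3 had an unadjusted p under 0.05 in each tool, where 4.77% of all tested genes did in edgeR and 5.66% in DESeq2. The median log2 fold change was 0.35, with 18 above and 8 below 0 (48.8% of all tested genes were above 0). Control 2 was the lowest library for 20 of the 26 (11.1% of all tested genes). The median was 0.89 without control 3, 0.67 without control 3 and ultrasound 3, 0.10 without control 2 and 0.09 without ultrasound 3. Among the genes used by both pathways, 15 of 17 were above 0, with a median of 0.37. Adcy5, the adenylyl cyclase that dopamine receptors act on in the striatum, had 41.2, 41.6 and 66.1 FPKM in ultrasound libraries, against 35.3, 20.9 and 58.9 FPKM in controls. Gng7, a G protein gamma subunit of the same complex, had 56.9, 36 and 111 FPKM in ultrasound libraries, against 44.0, 13.9 and 106 FPKM in controls. For Scn4b, a sodium channel beta subunit, the log2 fold change was 0.81 (SE 0.28), and for Foxp1, a transcription factor also used by cortical neurons, it was -1.06 (SE 0.36), each with an edgeR adjusted p of 0.973. Foxp1 was highest in controls 1 and 2 and lowest in ultrasound 3, the reverse of the members. For others in this list, log2 fold changes were 0.73 for Rxrg, 0.61 for Syndig1l, 0.47 for Bcl11b, 0.41 for Actn2, 0.39 for Rasd2, 0.37 for Rarb, 0.35 for Rasgrp2, 0.35 for Sh3rf2, 0.27 for Gnal, 0.19 for Arpp21, 0.15 for Ptpn5 and -0.14 for Strip2.

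Control 2 was the lowest library for all 4 genes of the indirect-pathway list (11.1% of all tested genes). Control 3 was the highest for 1, Sp9 (21.5% of all tested genes). Gpr52, a cAMP-raising receptor co-expressed with the D2 receptor, had 7.93, 8.23 and 12.1 FPKM in ultrasound libraries, against 3.09, 2.07 and 7.49 FPKM in controls. Its groups did not overlap, as for 10.8% of all tested genes, and its log2 fold change was 1.19 (SE 0.48, edgeR adjusted p = 0.973). Gpr6, another receptor of this pathway, had 6.71, 4.55 and 9.49 FPKM in ultrasound libraries, against 2.71, 2.14 and 7.63 FPKM in controls. Log2 fold changes were 0.63 for Six3 and -0.97 for Sp9, both transcription factors, with a median of 0.69 over the 4 genes, 1.72 without control 3 and 0.27 without control 2. Of the direct-pathway list 5 of 6 genes were tested, all 5 were below 0 (48.8% of all tested genes were above 0) and the median was -0.38. The minimum mean level bears on this count, because Isl1 reached it only through control 3. Ebf1, which did not reach it, averaged 0.454 FPKM in ultrasound libraries and 0.325 FPKM in controls. Without control 3 the median was 0.04, with 3 of 5 above 0, and the difference between the lists was not tested. Isl1, a transcription factor of direct-pathway neurons, had 0.369, 0.249 and 0.408 FPKM in ultrasound libraries, against 0.241, 0.0825 and 2.25 FPKM in controls. Slc35d3, a gene needed for D1 receptor trafficking, had 2.34, 0.891 and 2.26 FPKM in ultrasound libraries, against 1.06, 0.606 and 4.38 FPKM in controls. Isl1 and Slc35d3 were both lowest in control 2 and highest in control 3, the extremes most members had. In between, Slc35d3 differed from them, with ultrasound 1 above ultrasound 3 and control 1 above ultrasound 2. Pdyn, the dynorphin precursor, had 12.2, 8.75 and 15.7 FPKM in ultrasound libraries, against 11.4, 12.9 and 24.3 FPKM in controls. Chrm4, the M4 muscarinic receptor gene, had 11.2, 8.21 and 16.9 FPKM in ultrasound libraries, against 11.3, 21.1 and 19.7 FPKM in controls. Neither Pdyn nor Chrm4 was lowest in control 2. Log2 fold changes were -1.29 for Isl1, -0.12 for Slc35d3 and -0.18 for Sfxn1, and 0 of the 5 passed in edgeR, where the smallest adjusted p on the list was 0.973.

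**Figure D5:**
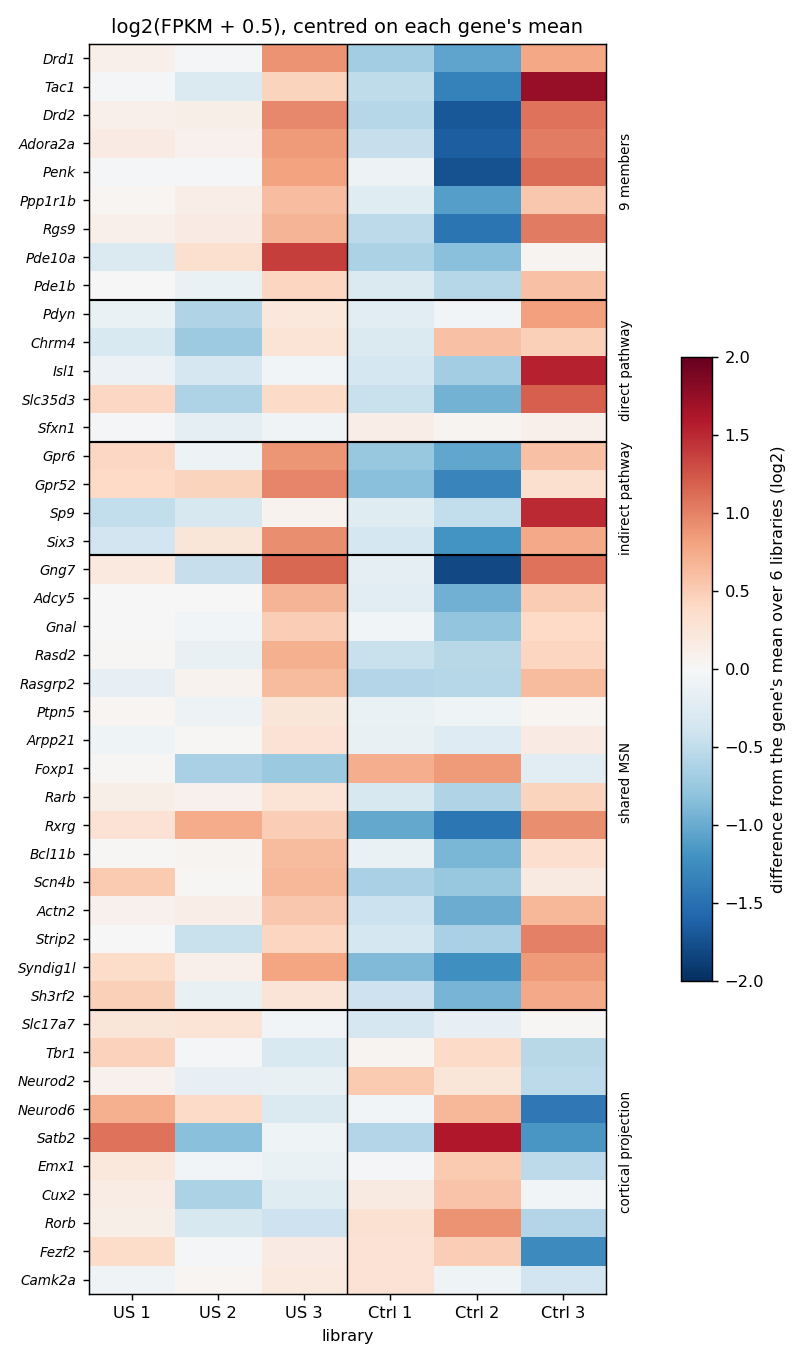
Difference of each gene's log2(FPKM + 0.5) from its mean over the 6 libraries (colour; red above, blue below), for the 9 members, genes of 3 further lists for these neurons and 10 markers of cortical projection neurons (rows), in ultrasound and control libraries (columns). Control 2 is the lowest column for all 9 members and for most of the further genes of these neurons, and none of the 10 cortical markers is lowest there.

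Components of cAMP and DARPP-32 signalling outside the medium spiny neuron lists had a smaller median log2 fold change than the members. Of 16 such genes 0 passed in edgeR and 0 in DESeq2, and 11 were above 0 (48.8% of all tested genes) with a median log2 fold change of 0.13. In each tool 1 had an unadjusted p under 0.05 (4.77% of all tested genes in edgeR and 5.66% in DESeq2). That gene was Pde7b, a cAMP phosphodiesterase, with 5.54, 3.50 and 5.59 FPKM in ultrasound libraries, against 3.11, 2.82 and 3.49 FPKM in controls, a log2 fold change of 0.66 (SE 0.18, edgeR adjusted p = 0.973). Its log2 fold change was above that of every member but Pde10a, and its groups did not overlap, as for 10.8% of all tested genes. For Rgs7bp, the membrane anchor of Rgs9, the log2 fold change was 0.38 (SE 0.17), for Gnb5, its obligate G beta partner, 0.25 (SE 0.15), and for Gnao1, a G protein alpha subunit, 0.24 (SE 0.11). Control 2 was the lowest library for 1 of the 16 (11.1% of all tested genes). It was again Pde7b, whose highest library was ultrasound 3, as for some members.

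Markers of other cells and regions moved with the members in some libraries, and their part in the results was not tested. The summed level of 10 markers of cortical projection neurons was 658, 654 and 635 FPKM in ultrasound libraries and 648, 609 and 504 FPKM in controls. Slc17a7 and Camk2a made up most of each sum, with 196 and 370 FPKM in ultrasound 3, so it says little about the rest. The median deviation of the 10 markers from each gene's mean, in which each gene counts alike, was highest in control 2, at 0.51 on the log2 scale. It was lowest in control 3, at -0.54. The members went the opposite way, with -1.35 in control 2 and 1.02 in control 3. Fezf2, a factor that specifies corticospinal neurons, had 7.52, 5.57 and 6.48 FPKM in ultrasound libraries, against 7.14, 8.25 and 2.07 FPKM in controls. The 5 genes of cholinergic neurons, a cell type of the striatum and basal forebrain, summed to 0.753, 1.18 and 6.71 FPKM in ultrasound libraries and to 1.46, 0.583 and 11 FPKM in controls, so they too were highest in control 3, next in ultrasound 3 and lowest in control 2. Chat, the enzyme that makes acetylcholine, had 1.40 FPKM in ultrasound 3 and 1.39 FPKM in control 3, and at most 0.422 FPKM elsewhere.

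GABAergic markers moved unevenly. Gad2, a GABA-synthesising enzyme that medium spiny neurons also use, had 26.9, 21.1 and 40.5 FPKM in ultrasound libraries, against 24.0, 17.8 and 44.8 FPKM in controls, whereas Pvalb, a marker of fast-spiking interneurons, had 55.6, 31.6 and 17.0 FPKM in ultrasound libraries, against 35.3, 80.5 and 16.2 FPKM in controls. Gad2 thus followed the members and Pvalb went the other way. Gad1 and Slc32a1, on the same list, followed the members less closely. Gad1 was at 45.9 FPKM in control 2, below only the 81.0 FPKM of control 3, and Slc32a1 was lowest in control 1. Against the mean standardised profile of the 9 members, Pearson's r was 0.915 for Gad2, 0.759 for Slc32a1, 0.462 for Gad1 and -0.905 for Pvalb. The other genes of the list lay between -0.798 and 0.196. For all 8, the median log2 fold change was -0.09. Th, the enzyme of dopamine synthesis, was at 11.2 FPKM in control 3 and at most 0.577 FPKM elsewhere, while Slc6a3, the dopamine transporter, was at most 0.354 FPKM in any library, and the tested dopaminergic genes had a median of -0.76. The remaining medians were -4.06 for the olfactory bulb, -0.58 for cholinergic neurons, 0.05 for cortical projection neurons, 0.04 for thalamus, 0.67 for choroid plexus, 0.22 for oligodendrocytes, 0.03 for astrocytes, 0.02 for microglia and 0.90 for blood, whose summed level was 95.2, 85.3 and 4.09 FPKM in ultrasound libraries and 7.17, 8.02 and 86.0 FPKM in controls. In these lists 0 genes passed the adjusted threshold in edgeR, and 0 of those with a p in DESeq2. DESeq2 gave no p for 7 of the 95 tested genes of all lists, namely Th, Doc2g, Omp, Tbx21, Eomes, Ttr and Aqp1. Without control 3 the median was 0.98 for the olfactory bulb, 1.66 for cholinergic neurons, 2.60 for choroid plexus, 0.19 for dopaminergic neurons, 3.06 for blood, 0.07 for GABAergic neurons and -0.21 for cortical projection neurons, so 5 of these 7 medians changed sign. Without both control 3 and ultrasound 3, it was 0.07 for the olfactory bulb, -0.01 for cholinergic neurons and 1.67 for choroid plexus, and in that fit the 2 tested blood genes passed the adjusted threshold in edgeR.

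Beyond the lists, genes were ranked by Pearson's r between their log2(FPKM + 0.5) and the mean standardised profile of the 9 members over the 6 libraries, among 11445 named protein-coding genes with a mean of at least 1 FPKM. The 9 most alike were Actn2, Sv2c, Rhbdl3, Adcy5, Robo1, Aldh3b1, Fchsd2, Klhl13 and Cacng4, with r from 0.983 to 0.992. Actn2, an actin cross-linker of dendritic spines, had 5.70, 5.91 and 8.00 FPKM in ultrasound libraries, against 3.84, 2.44 and 8.82 FPKM in controls. Sv2c, a synaptic vesicle protein abundant in the basal ganglia, had 6.04, 5.55 and 7.99 FPKM in ultrasound libraries, against 4.01, 2.86 and 8.34 FPKM in controls. Of the 25 other medium spiny neuron genes ranked, 13 had an r of at least 0.9, against 1.03% of all ranked genes. The 5 genes with the most opposite profile were Stmn4, St7, Far2, Hes1 and Actr1b, with r from -0.993 to -0.979. Hes1, a repressor downstream of Notch, had 2.33, 2.70 and 1.9 FPKM in ultrasound libraries, against 3.11, 4.93 and 1.59 FPKM in controls. With 6 points per gene and 11445 genes ranked, values of this size are a description of these libraries.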

How the data were processed

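RNA was measured in 6 libraries labelled motor cortex, 3 ultrasound and 3 control, all from SOD1G93A mice at day 120. Polyadenylated RNA was selected, the dUTP-marked second cDNA strand was digested and both fragment ends were sequenced, per the labels' protocols. The authors deposited raw counts per gene and FPKM values, named so per the file headers. Among tools, the notes of the submitters on processing name HISAT2 2.0.4 and StringTie 1.3.4d, after cutadapt 1.9, along with edgeR and DESeq2, and mm10 as the build. The sources used here do not give the counting tool or its use of strand. Gene coordinates are the deposited table's: of 32701 gene identifiers shared with GENCODE M21 on GRCm38, 601 had the same chromosome, start and end, among them 1 of the 9 members, so the build of these coordinates is not settled and they were not joined to the RefSeq promoter windows. Windows on chromosome 18 were not searched. The table's 12 remaining per-library columns belong to no sample given here and were left out.

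From the counts, edgeR 4.0.16 in R 4.3.3 was run with TMM scaling, the robust quasi-likelihood test and no covariate on the 15740 genes with a mean of at least 0.5 FPKM, with Benjamini-Hochberg adjustment and a threshold of 0.05. The SE given with an edgeR log2 fold change was derived from that test, as the absolute log2 fold change over the square root of its F statistic. Alternatives were DESeq2 1.42.0, limma 3.58.1 on log2 FPKM with 3 pseudocounts, other scalings and filters, a replicate block, and each library left out. The list medians with libraries left out were added after the data were seen. Between libraries, FPKM and counts of the members differed by 1 factor per library, within 0.311%. No pair of libraries was identical or agreed within sampling noise. Counts are of PCR-amplified reads without molecular identifiers, so they are not independent molecules.

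The members and the 15 lists of 103 genes were chosen with earlier results of these data known. All members were named, with the tested genes of the 3 lists for medium spiny neurons; the rule also allowed up to 4 genes with the smallest p from each other list, of which fewer are named. The 10 genes most like the members and the 5 most unlike were to be named by rank of r. A few genes that these rules select are not reported here. Fezf2, Chat, Gad1, Gad2, Slc32a1, Pvalb, Th and Slc6a3 were picked out after their values were seen.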

Additional observations from a re-analysis of the deposited data

How the results depend on the processing

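The number of the 9 members past the adjusted threshold was 0 under each of the 16 alternatives. Of the 144 member fold changes under these alternatives, 131 kept their direction and 13 reversed, all of them without passing the threshold in either fit. Tac1 turned positive in limma on log2(FPKM + 0.5), (FPKM + 1) and (FPKM + 0.1), with 0.076, 0.048 and 0.10, and without control 3 and ultrasound 3, with 0.81. Leaving out 1 library at a time, log2 fold changes ranged from -0.96 to 1.03 for Tac1, -0.31 to 1.04 for Penk, -0.072 to 0.58 for Pde1b, -0.0048 to 1.61 for Drd2, -0.033 to 1.44 for Adora2a and -0.10 to 1.36 for Rgs9, with the lowest value of each without control 2 and the highest without control 3. Pde1b and Penk were also below 0 without ultrasound 3. Drd1, Ppp1r1b and Pde10a stayed above 0 under all 16, with leave-one-out ranges of 0.18 (without ultrasound 3) to 1.38, 0.12 (without control 2) to 0.93 and 0.56 (without ultrasound 3) to 1.48. The median of the 9 ranged from -0.033 to 1.36 in these fits.

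The number of all tested genes past the threshold was 1 in the reported fit, 29 in DESeq2, 2 with no filter, 0 in limma with each pseudocount (751, 750 and 741 with an unadjusted p under 0.05 at 0.5, 1 and 0.1), 8 without control 3 and ultrasound 3, and 1 to 4 with 1 library left out (4 without control 2 and 4 without control 3). The number of correlated pairs past the threshold ranged from 0 (without control 1) to 28 of 36 with 1 library left out, with 12 without control 2 and 16 without ultrasound 3. Fewer libraries allow fewer orderings, so these counts also depend on the smallest possible p. Same-numbered libraries did not deviate together, with correlations over the tested genes of -0.0505, -0.0545 and 0.0523, and no ultrasound library correlated best with its own number. With the replicate block the median of the 9 was 0.71, Tac1 was at 0.16, 1 gene of 15740 and 0 members passed, and 2 members had an unadjusted p under 0.05 (4.03% of all tested genes). The cause of these changes was not tested. The lowest count of a member in any library was 444.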
